A study of Mus musculus with 2 samples.

Results

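Of the 39986 mouse piRNAs listed for these libraries, 90 had a read, and 6 of them formed 3 pairs whose annotated sequences overlap by at least 18 nt. The pairs were mmu_piR_000159 with mmu_piR_039147, mmu_piR_000362 with mmu_piR_038322, and mmu_piR_000310 with mmu_piR_000818, here called the first, the second and the third pair. They were selected on having reads in these libraries, on their overlap and on the absence of an exact match in annotated exons, with their earlier read counts known. Small RNA came from total RNA of GC-1 cells, an immortalised mouse line labelled as spermatogonia. The control library was made from cells held at 0 nM MC-LR for 24 h. The MC-LR (exposed) library was made from cells held at 500 nM MC-LR for 24 h, with 1 library in each group. MC-LR is microcystin-LR, a cyanobacterial toxin that inhibits serine/threonine protein phosphatases. No step that selects RNA bound to a PIWI protein is described in the labels. Cell type markers were not analysed here, since the tables hold piRNA sequences only. A single library per group allows neither a test nor a replicate check, and each interval below covers counting error between these libraries alone.

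piRNAs are small RNAs of germ cells that load onto PIWI proteins and guide the silencing of transposons. Primary piRNAs are cut from long single-stranded precursors and typically begin with U, and their partners made by the ping-pong cycle typically carry A at position 10. Collections of piRNAs built from small RNA sequencing also hold fragments of abundant structural RNAs such as ribosomal RNA. A fragment that is cut or trimmed at slightly different places can enter such a collection under several names, so overlapping entries can describe ends of a single RNA.

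The annotated sequences are shown because the bases outside the overlap are all that separates the members of a pair. Bases in lower case are shared by both members, and capitals mark bases that a single member has.

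mmu_piR_000159: AAAGTCAGCcctcgacacaagggtttgt
mmu_piR_039147: cctcgacacaagggtttgtAA
mmu_piR_000362: Caagaacgaaagtcggaggttcgaagacga
mmu_piR_038322: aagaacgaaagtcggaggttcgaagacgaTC
mmu_piR_000310: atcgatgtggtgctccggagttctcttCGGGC
mmu_piR_000818: Gatcgatgtggtgctccggagttctctt

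The first pair shared 19 nt of a joint sequence of 30 nt, the second 29 of 32 nt, and the third 27 of 33 nt. Positions below are counted from base 1 of the joint sequence of each pair. None of the 6 begins with U, a base that starts 47 of the 90 detected piRNAs. A at position 10 was found in mmu_piR_039147, mmu_piR_000362 and mmu_piR_038322. No piRNA outside the pairs shared 18 nt with any of the 6. The distinct sequences read (tags) numbered 30 over the 3 pairs, of which both libraries held 18, only the control 8 and only the exposed library 4. Every tag in the files lies within its piRNA without a mismatch and is 0 to 3 nt shorter than it, so longer, shorter or altered forms were not measured.

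None of the 6 matched an exon of GENCODE M21 (GRCm38) over its whole length, but part of the second and of the third pair did. The joint sequence of the second pair lay on chromosome 17 from 39847385 to 39847416 (plus strand) in the single exon of the lincRNA Gm42418, with 1 substitution over 32 nt. That substitution is T19G, with the base of the reference first, its position on the joint sequence and then the base of the piRNA. RefSeq (GRCm38.p6) gives Gm42418 as a synonym of Rn18s-rs5, a pseudogene related to 18S ribosomal RNA on chromosome 17 from 39846354 to 39848202. Bases 16 to 33 of the third pair matched the first 18 bases of the lincRNA Gm26917 (chromosome 17, 39843013 to 39843030, plus strand), and sequence before that exon was not searched. Bases 1 to 26 of the third pair also aligned with the end of the Mir5099 hairpin (chromosome 12, 36816253 to 36816278, plus strand) with 1 substitution, T18G. The aligned end of that hairpin, from RefSeq, is shown with the differing base as a capital.

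Mir5099 hairpin, last 26 bases: gaucgauguggugcuccUgaguucuc

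Reads of the third pair carry the G and therefore did not match this hairpin exactly. For the first pair the longest exact run in any transcript was 15 nt, on the opposite strand. As background, its shared bases are those known at the 3′ end of mammalian 28S ribosomal RNA, and a 28S sequence was not used here to check this. These matches describe letters only.

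The control library held 244066 piRNA reads and the MC-LR library 359871, so a single read stood for 4.10 and 2.78 counts per 1000000 piRNA reads (CPM). A fragment named mmu_piR_000691 took 87.6% of control reads and 91.4% of MC-LR reads and weighs on every CPM. In bulk RNA, fewer cells with a fragment and less of it per cell cannot be told apart.

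In each pair a single member held nearly all reads in both libraries. Reads of mmu_piR_039147 numbered 432 in the control and 230 after exposure, against 10 and 9 for mmu_piR_000159. mmu_piR_038322 had 56 and 39, against 6 and 3 for mmu_piR_000362. mmu_piR_000818 had 130 and 145, against 4 and 7 for mmu_piR_000310. The leading member thus took 97.7%, 90.3% and 97.0% of its pair's control reads and 96.2%, 92.9% and 95.4% of its MC-LR reads. The odds of the leading member, MC-LR over control, were 0.592 (exact 95% interval 0.213 to 1.67), 1.39 (0.276 to 9.10) and 0.637 (0.134 to 2.58). All 3 intervals include 1 and are wide. No read of the first pair holds a base found in mmu_piR_039147 alone, so its odds compare listed lengths, not members. In the third pair 67.2% of control and 59.2% of MC-LR reads lie inside both members and were also listed by length. For the second pair a shift between members was not detectable at this depth.

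**Figure D1:**
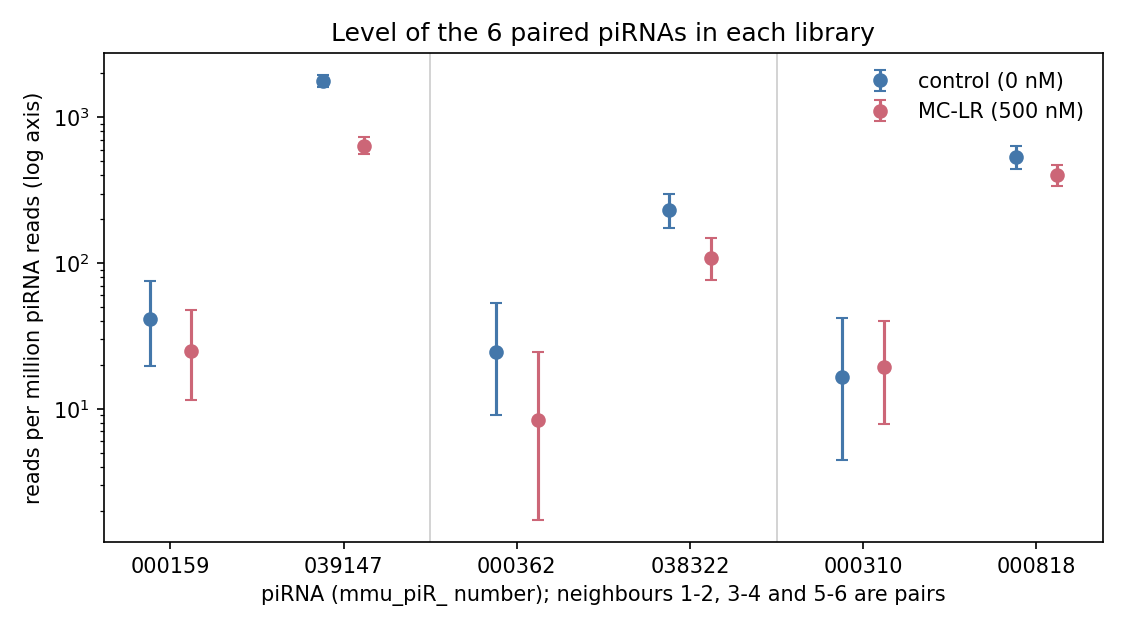
CPM of the 6 piRNAs (log axis) in the control (blue) and MC-LR (red) library, with exact 95% Poisson intervals that cover counting error only. mmu_piR_039147 stands highest, at 1770 CPM (control) and 639 CPM (exposed), and the minor member of each pair stays under 41.0 CPM in both.

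The level of the first pair was lower in the MC-LR library under each scaling tried, whereas those of the second pair and the third pair depended on 1 tag or on the scaling. Summed over both members, the first pair had 442 reads (1811 CPM) in the control and 239 (664 CPM) after exposure, giving a CPM ratio of 0.367 (exact interval 0.312 to 0.430). For the second pair 62 and 42 reads, or 254 and 117 CPM, gave a ratio of 0.459 (0.303 to 0.691). That ratio was 0.736 (0.485 to 1.11) when scaled without the 10 most abundant piRNAs, and 0.818 (0.506 to 1.33) without the tag of bases 2 to 32, described further on. For the third pair 134 and 152 reads, or 549 and 422 CPM, gave a ratio of 0.769 (0.606 to 0.978). The ratio of the third pair passed 1 under other scalings, at 1.10 (0.870 to 1.40) against the reads outside mmu_piR_000691. All 6 members together stood at 2614 and 1203 CPM, a ratio of 0.460 (0.406 to 0.521).

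Between the pairs, a comparison free of the scaling was possible. The third pair stood at 134 reads per 442 of the first pair in the control and at 152 per 239 after exposure, which is 2.10 times as high (1.57 to 2.80). Against the second pair it gave 1.67 (1.04 to 2.72). The second against the first gave 1.25 (0.80 to 1.95), an interval that includes 1. Both values of the second pair rest on the tag of bases 2 to 32, with 28 and 1 reads. Without it the third pair against the second gave 0.941 (0.545 to 1.62), and the second against the first gave 2.23 (1.34 to 3.72). Within these libraries the third pair thus stood apart from the first by more than counting error, with no measure of the spread between cultures.

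Of the 4 members with at least 10 reads in a library, 2 were lower under the rule of a ratio of at most 0.5 with an interval that excludes 1, and 0 were higher. The count of lower members was 0 when scaled without mmu_piR_000691 or without the 10 most abundant piRNAs, and 1 with edgeR TMM or DESeq2 factors. Among all 43 piRNAs with as many reads, 18.6% were lower and 6.98% higher by CPM, and such shares are not given for the other scalings. The members were chosen with these values known, so nothing is read from that contrast. mmu_piR_039147 had a ratio of 0.361 and mmu_piR_038322 one of 0.472 (0.306 to 0.724). mmu_piR_000818 stood at 0.756 (0.593 to 0.966) and mmu_piR_000159 at 0.610 (0.219 to 1.67). mmu_piR_000362 and mmu_piR_000310 had too few reads for the rule, with ratios of 0.339 (0.0549 to 1.59) and 1.19 (0.302 to 5.53). The median log2 ratio was -0.90 over the 4 members and -0.40 over the 43 piRNAs. Of the 9 other piRNAs without exonic match that had 10 reads, 2 were lower, with a median of -0.40. A further 20 detected piRNAs share 18 nt with another, but none of them reached 10 reads.

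The piRNAs outside the pairs with the closest CPM ratio over these libraries were mmu_piR_000622 for the first pair (0.370, from 11 and 6 reads), mmu_piR_027673 for the second (0.463, from 142 and 97) and mmu_piR_025007 for the third (0.769, from 4544 and 5153). Likeness over 2 libraries is a weak measure.

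The tags show what the names of the first pair rest on. mmu_piR_039147 was counted from only 3 tags, and none of them holds the final AA that sets it apart from mmu_piR_000159.

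mmu_piR_039147, bases 11 to 28: ctcgacacaagggtttgt
mmu_piR_039147, bases 10 to 28: cctcgacacaagggtttgt
mmu_piR_039147, bases 10 to 27: cctcgacacaagggtttg
mmu_piR_000159, bases 1 to 27: AAAGTCAGCcctcgacacaagggtttg
mmu_piR_000159, bases 2 to 27: AAGTCAGCcctcgacacaagggtttg

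The tag of bases 11 to 28 was read 296 times in the control and 167 times after exposure, for a ratio of 0.383 (0.315 to 0.464). The tag of bases 10 to 28 followed with 115 and 48 reads (0.283, 0.198 to 0.400) and that of bases 10 to 27 with 21 and 15, a ratio of 0.484 (0.232 to 0.986). All 3 tags of mmu_piR_039147 were lower. The tags of mmu_piR_000159 were few and mixed. Bases 1 to 27 rose from 2 to 8, with a CPM interval (0.541 to 26.2) that includes 1. Bases 2 to 27 fell from 5 to 0, bases 2 to 28 from 2 to 1, and bases 3 to 27 from 1 to 0. Each of the 3 tags of mmu_piR_039147 lies wholly inside mmu_piR_000159 as well, and is too short to be listed under it. Reads that reach base 29 or 30 numbered 0 of 442 without and 0 of 239 with the toxin. For mmu_piR_039147 this allows, at 3 reads, a full-length share of up to 0.694% of 432 control reads and 1.30% of 230 MC-LR reads. Every read counted as mmu_piR_039147 therefore fits the 3′ part of mmu_piR_000159 equally well.

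Lengths were bounded by the way the tags are listed. mmu_piR_039147 can hold tags of 18 to 21 nt and mmu_piR_000159 tags of 25 to 28 nt, so forms of 22 to 24 nt of the same stretch would be listed under neither. Tags at the shortest listed length of 18 nt made up 73.4% of the reads of mmu_piR_039147 in the control (68.9 to 77.5) and 79.1% after exposure (73.3 to 84.2). Still shorter fragments were not measured.

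The main ends of the first pair differed by no more than counting error between the libraries. The 5′ end at base 11 opened 67.0% of the pair's reads without MC-LR (62.4 to 71.3) and 69.9% with it (63.6 to 75.6), with an odds ratio of 1.14 (0.804 to 1.63). The 5′ end at base 10 took 30.8% (26.5 to 35.3) and 26.4% (20.9 to 32.4). The 3′ end at base 28 took 93.4% (90.7 to 95.6) and 90.4% (85.9 to 93.8), an odds ratio of 0.659 (0.359 to 1.23). These intervals overlap, and the lower level of the pair came with no detectable change among the main ends that can be listed. A listed read of mmu_piR_039147 holds at least 18 nt, so one that begins at base 11 has to reach base 28. Ends of this member further inside could not be seen, so the shares at base 28 are partly set by the listing. Among the few reads of mmu_piR_000159, those that begin at base 1 numbered 2 without and 8 with MC-LR, and those that begin at base 2 numbered 7 and 1.

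**Figure D2:**
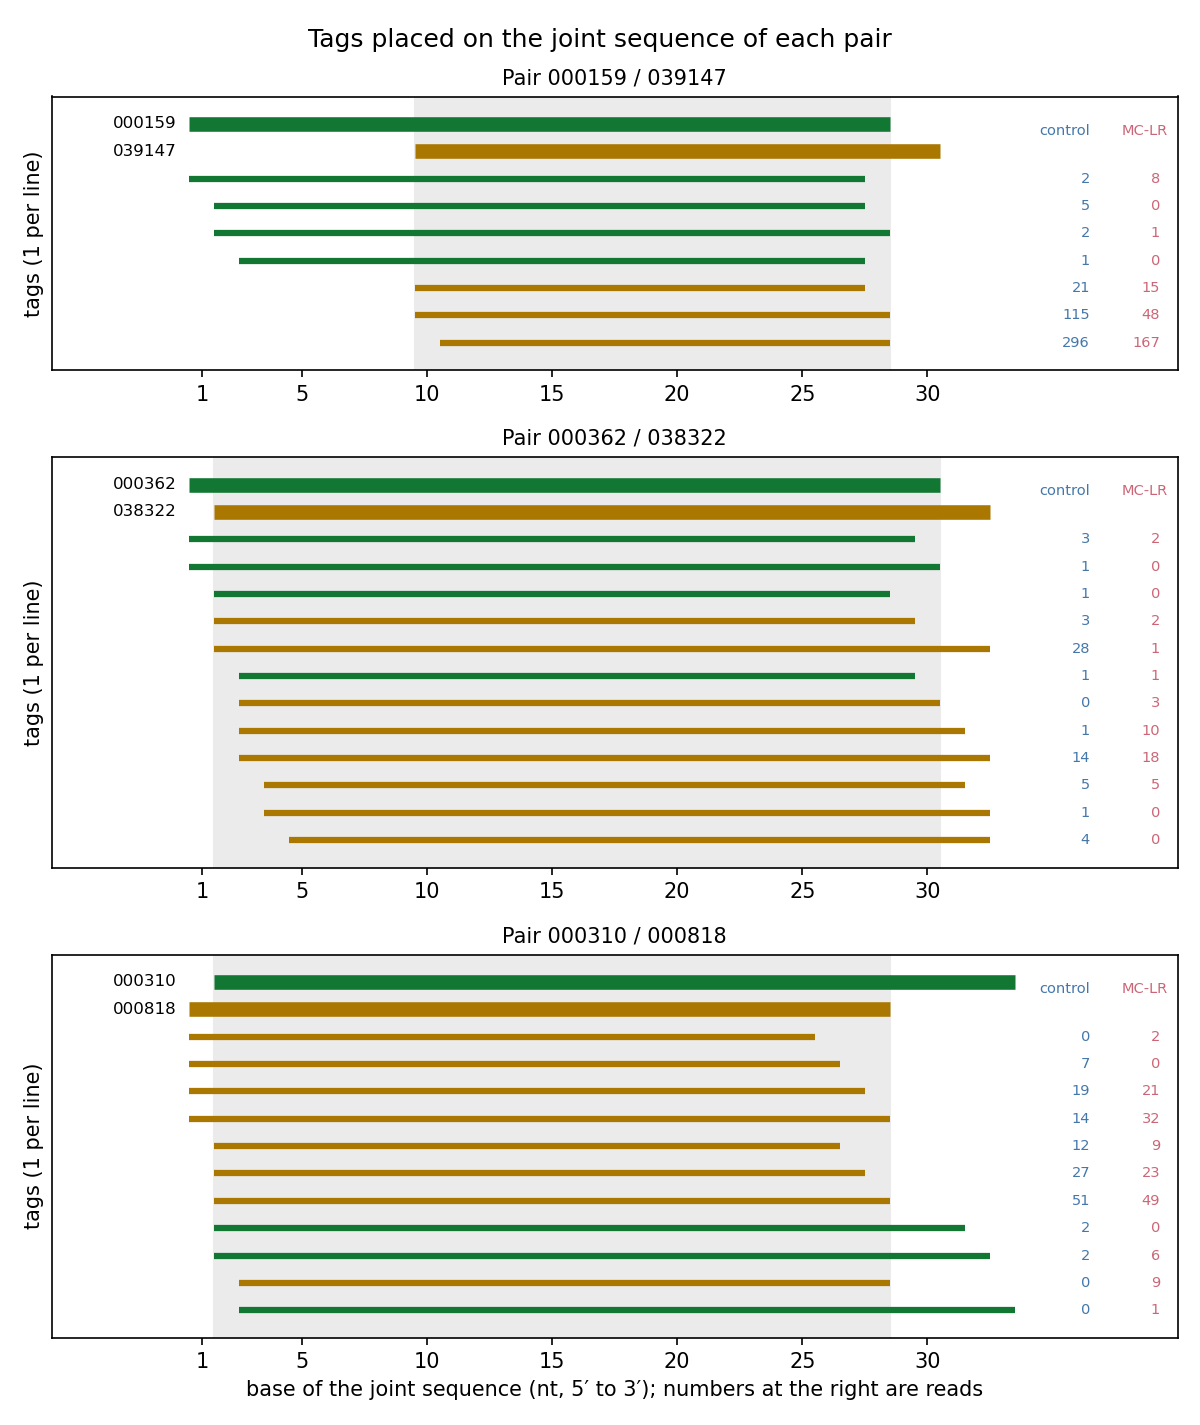
Tags of each pair placed on the joint sequence (horizontal axis in nt, 5′ to 3′), with the 2 annotated members as thick bars, the overlap shaded grey, and reads of the control and MC-LR library at the right. Colours give the member each tag is listed under. All 3 tags of mmu_piR_039147 stop at base 28 or before, and the tag of bases 2 to 32 in the second pair has 28 control reads and 1 MC-LR read.

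In the second pair the ends differed between the libraries. The full-length form of mmu_piR_038322, bases 2 to 32, was the leading tag of the control with 28 reads and had 1 read in the MC-LR library. The form that lacks its first A led in the MC-LR library. The 4 tags below are shown because together they hold most of the reads of this pair. The last of them is the leading tag of mmu_piR_000362, with only 3 and 2 reads.

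mmu_piR_038322, bases 2 to 32: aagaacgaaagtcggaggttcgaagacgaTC
mmu_piR_038322, bases 3 to 32: agaacgaaagtcggaggttcgaagacgaTC
mmu_piR_038322, bases 3 to 31: agaacgaaagtcggaggttcgaagacgaT
mmu_piR_000362, bases 1 to 29: Caagaacgaaagtcggaggttcgaagacg

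The full-length tag had a CPM ratio of 0.0242 (0.000592 to 0.147). The tag of bases 3 to 32 gave 0.872 (0.410 to 1.89) from 14 and 18 reads, and that of bases 3 to 31 gave 6.78 (0.965 to 294) from 1 and 10 reads. Of 11 tags of the 6 members with at least 10 reads, 4 were lower and 0 higher by the same rule, where all 97 such tags of the libraries gave 16.5% lower and 2.06% higher. The lower ones were the 3 tags of mmu_piR_039147 and this full-length tag. Under the other 4 scalings 2 or 3 tags were lower, among them this tag and that of bases 10 to 28 of mmu_piR_039147 each time, and 2 were higher, bases 3 to 31 of mmu_piR_038322 and bases 1 to 28 of mmu_piR_000818. Shares over all 97 tags are not given for these scalings, so nothing is read from these counts.

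By 5′ end, reads that begin at base 2 made up 51.6% of the second pair without MC-LR (38.6 to 64.5) and 7.14% with it (1.5 to 19.5). Reads that begin at base 3 made up 25.8% (15.5 to 38.5) and 76.2% (60.5 to 87.9), an odds ratio of 9.20 (3.41 to 25.5). Neither pair of intervals overlaps. By 3′ end, base 32 closed 75.8% of the reads without MC-LR (63.3 to 85.8) and 45.2% with it (29.8 to 61.3), an odds ratio of 0.264 (0.104 to 0.662). Base 31 closed 9.68% (3.63 to 19.9) and 35.7% (21.6 to 52.0), an odds ratio of 5.19 (1.65 to 17.9). In these 62 and 42 reads, the leading 5′ end of the exposed library thus lay further inside the joint sequence. A smaller share of its reads reached base 32. Both differences draw on the tag of bases 2 to 32, with 28 and 1 reads, which is left out in the next paragraph.

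That 1 tag carried the lower level of the second pair. Without it, the reads of mmu_piR_038322 were 28 and 38, which is a CPM ratio of 0.92 (0.550 to 1.56), and the pair a ratio of 0.818 (0.506 to 1.33). The difference at the 5′ end was then smaller. Base 3 opened 47.1% of 34 reads without MC-LR (29.8 to 64.9) and 78.0% of 41 with it (62.4 to 89.4), an odds ratio of 4.0 (1.33 to 12.4). The 3′ end at base 32 gave 0.618 (0.224 to 1.70) without it, an interval that includes 1. This leave-out was chosen after the values were seen. The share of A at position 10 of the reads followed the 5′ end, at 58.1% without MC-LR (44.8 to 70.5) and 11.9% with it (3.98 to 25.6), since base 11 is A and base 12 is G.

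Full-length reads of mmu_piR_038322 went from 50% of 56 reads (36.3 to 63.7) to 2.56% of 39 (0.0649 to 13.5). The difference was -47.4 percentage points. Over the 30 piRNAs outside the pairs with 10 reads in both libraries, this difference ran from -44.2 to 24.1 points with a median of 0. Other piRNAs of low count thus reached differences nearly as large.

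Unlike in the first pair, most reads of the second hold a base that names their member. Of 62 control reads, 53 (85.5%) hold the final T or TC found in mmu_piR_038322 alone, and 34 of 42 MC-LR reads (81.0%) do so. Reads with the first C of mmu_piR_000362 numbered 4 and 2. The remaining 5 and 6 reads lie inside both members. Of these, the tag of bases 2 to 29 (3 and 2 reads) and that of bases 3 to 30 (0 and 3 reads) meet the length limit of both and stand under mmu_piR_038322.

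**Figure D3:**
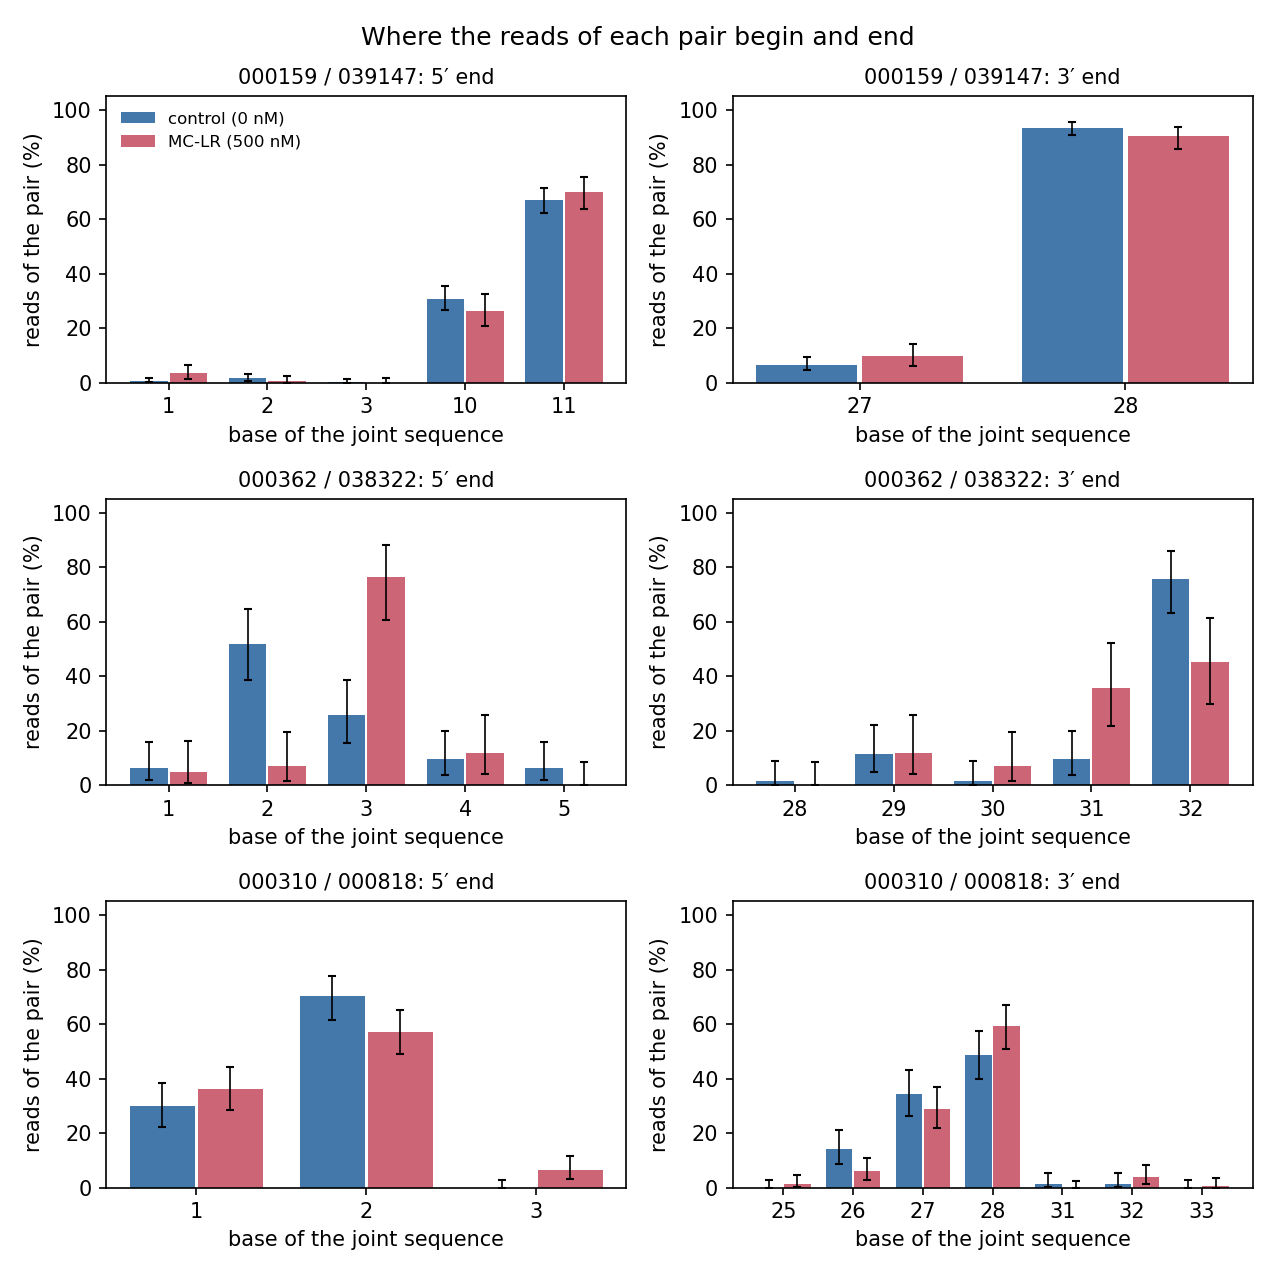
Share of each pair's reads (%) that begin (left) or end (right) at each base of the joint sequence, in the control (blue) and MC-LR (red) library, with exact 95% binomial intervals. In the middle row the leading 5′ end is base 2 without the toxin (51.6%) and base 3 with it (76.2%), while the leading ends of the top row stay in place. Only ends that the listed tag lengths allow can appear.

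In the third pair, 5′ ends at base 1 and base 2 were both in use. The member mmu_piR_000818 begins at base 1 and mmu_piR_000310 at base 2, yet the leading tag under mmu_piR_000818 began at base 2 in both libraries.

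mmu_piR_000818, bases 2 to 28: atcgatgtggtgctccggagttctctt
mmu_piR_000818, bases 1 to 28: Gatcgatgtggtgctccggagttctctt
mmu_piR_000818, bases 2 to 27: atcgatgtggtgctccggagttctct
mmu_piR_000818, bases 3 to 28: tcgatgtggtgctccggagttctctt
mmu_piR_000310, bases 2 to 32: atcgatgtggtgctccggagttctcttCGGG

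The tag of bases 2 to 28 was read 51 and 49 times, for a CPM ratio of 0.652 (0.431 to 0.984). Its full-length tag was read 14 and 32 times, for a ratio of 1.55 (0.804 to 3.14). That tag made up 10.8% of 130 reads of mmu_piR_000818 without MC-LR (6.01 to 17.4) and 22.1% of 145 with it (15.6 to 29.7), an odds ratio of 2.35 (1.14 to 5.01). The direction is opposite to that of the full-length form of mmu_piR_038322. The difference of 11.3 percentage points lies within the range of the 30 piRNAs outside the pairs, -44.2 to 24.1.

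Reads that begin at base 2 took 70.1% of the third pair without MC-LR (61.6 to 77.7) and 57.2% with it (49.0 to 65.2), an odds ratio of 0.570 (0.338 to 0.956). Base 1 opened 29.9% (22.3 to 38.4) and 36.2% (28.6 to 44.4), an odds ratio of 1.33 (0.788 to 2.26). Reads that begin at base 3, with a first-base U, numbered 0 of 134 without the toxin and 10 of 152 with it, or 6.58% (3.20 to 11.8). The control count of 0 allows, at 3 reads, a share of up to 2.24%. These 10 were the only reads of the 6 members that begin with U. At the 3′ end, base 28 closed 48.5% (39.8 to 57.3) and 59.2% (51.0 to 67.1), and base 26 closed 14.2% (8.76 to 21.3) and 5.92% (2.74 to 10.9), an odds ratio of 0.381 (0.146 to 0.927).

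The names of the third pair also share most of their reads. In the control 90 of 134 reads (67.2%) and in the MC-LR library 90 of 152 (59.2%) lie inside both members, and all stand under mmu_piR_000818 because they are too short for mmu_piR_000310. Reads with the first G, found in mmu_piR_000818 alone, numbered 40 and 55, a CPM ratio of 0.933 (0.609 to 1.44). Reads that run past base 28 into the end found in mmu_piR_000310 alone numbered 4 and 7. Of the 2 tags of mmu_piR_000310 in the control, bases 2 to 31 and bases 2 to 32, each had 2 reads, and the second had 6 in the MC-LR library.

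**Figure D4:**
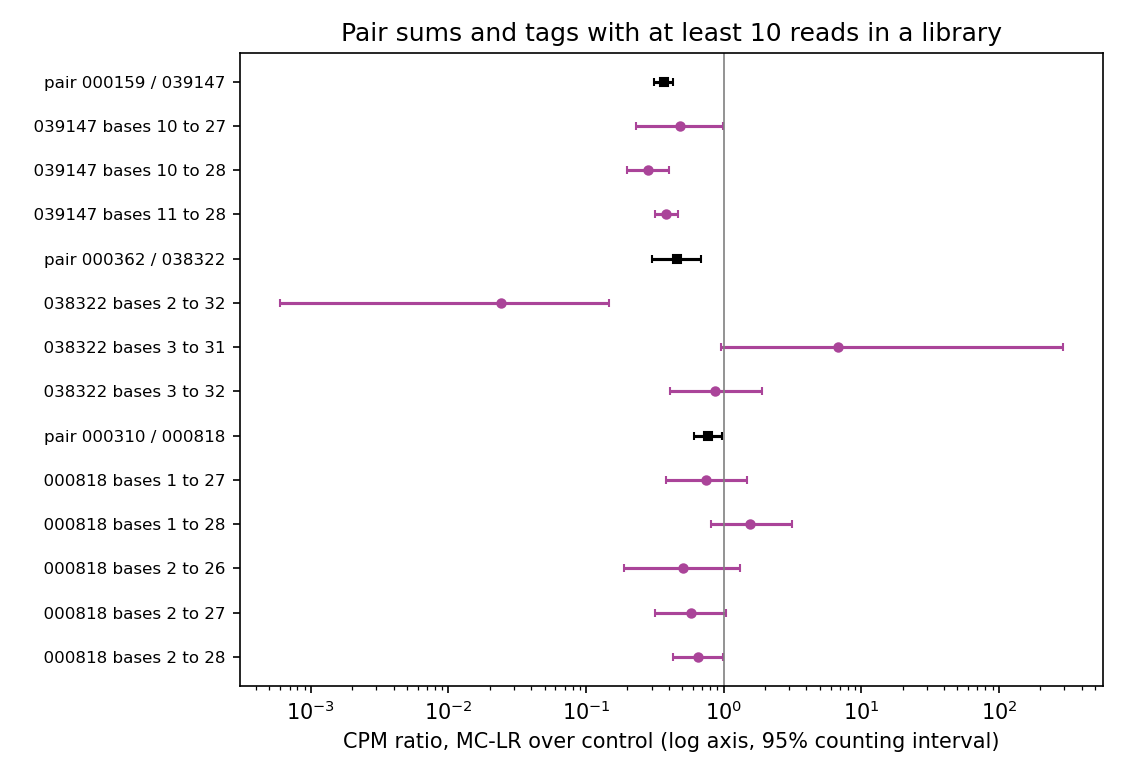
CPM ratio, MC-LR over control (log axis), of the 3 pair sums (black squares) and of each tag with at least 10 reads in a library (purple circles), with exact 95% intervals for counting error. The 3 tags of mmu_piR_039147 lie together below 1, whereas in the second pair the tag of bases 2 to 32 lies at 0.0242 and the other 2 tags have intervals that include 1.

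Over the 3 pairs, 27 ends were compared, and 8 odds ratios had an interval that excludes 1, with no adjustment for their number: 1 in the first pair, 4 in the second and 3 in the third. Such a share is not given for the ends of other piRNAs, so nothing is read from this count. The one in the first pair rests on the 2 and 8 reads at base 1. Without the tag of bases 2 to 32, only the 5′ end at base 3 of the second pair still excluded 1. The 5′ end at base 2 then gave 0.385 (0.0331 to 2.93), and the 3′ end at base 31 gave 2.69 (0.820 to 9.68). Shares of the ends of a pair add up to the whole, so these odds ratios are not separate results.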

How the data were processed

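Small RNA from 1 control and 1 MC-LR library of GC-1 cells was analysed. The authors deposited raw counts of reads per listed piRNA and raw counts of reads per tag, with other columns giving lengths in nt. The submitters' processing notes name build mm8. The aligner, the mismatch rule and the source of the piRNA sequences were not given in the labels or tables. Tag reads were checked to sum to each piRNA count, with 0 disagreements. Tags were placed on the joint sequence of each pair. CPM used all piRNA reads. Ratio intervals are exact Clopper-Pearson intervals of the MC-LR share of reads, shares have exact binomial intervals, and odds ratios have exact conditional intervals, all at 95%. No molecular identifiers are described, and PCR copies are not separate molecules, so intervals and the floor of 3 counts cover counting error only. All 6 members, the piRNA that sets the scale and the piRNA nearest to each pair in log2 CPM ratio were named. Transcripts of GENCODE M21 were searched on both strands for exact runs of at least 14 nt. Scripts were tested on simulated data. Alternatives were other scalings (edgeR 4.0.16, DESeq2 1.42.0), filters on single-read tags, other handling of tags that fit both members, and other read minimums and folds. Software was Python 3.11.15 with scipy 1.17.1. The members and lists were chosen with earlier results of these data known.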

Additional observations from a re-analysis of the deposited data

How the results depend on the processing

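No paired analysis was possible because there is a single library of each kind. Other scalings raised every log2 ratio, by 0.52 without mmu_piR_000691, 0.68 without the 10 most abundant piRNAs, 0.40 with edgeR TMM factors and 0.38 with DESeq2 size factors. In that order the CPM ratio of mmu_piR_039147 became 0.519, 0.579, 0.475 and 0.469, and that of its pair 0.527, 0.588, 0.483 and 0.477, all still below 1. mmu_piR_000818 moved to 1.09, 1.21, 0.996 and 0.984, and its pair to 1.10, 1.23, 1.01 and 1.0, so the third pair kept no direction. Without the 10 most abundant piRNAs, mmu_piR_038322 stood at 0.757 and its pair at 0.736 (0.485 to 1.11). Lower members numbered 2 by CPM, where 18.6% of the 43 piRNAs with at least 10 reads were lower. Their number became 0 and 0 under the reduced totals and 1 under TMM and DESeq2, for which no such share is given. Without the full-length tag of mmu_piR_038322, added after the values were seen, its ratio was 0.92 and that of the pair 0.818, the third pair against the second turned from 1.67 to 0.941, and the second against the first went from 1.25 to 2.23. From tags of mmu_piR_000362 alone the odds ratio of the 5′ end at base 3 was 2.5, and from tags of mmu_piR_000310 alone that of the 5′ end at base 2 was 0, on 9 and 11 reads. Odds of members and ends do not depend on scaling. Of 96 alternative values, 68 stayed within the interval or count of the main value, 21 moved outside it and 7 changed direction. A change of direction was counted only where the main interval excludes 1. Those 7 belong to mmu_piR_000818, its pair, and the ratio of that pair to the pair of mmu_piR_038322. The odds of mmu_piR_038322 in its pair, with a main interval that includes 1, are among the 68. They went from 1.39 to 0.722 (0.223 to 2.39) with tags that fit both members given to the other member. Some of the 68 could not differ, since only tags listed under mmu_piR_038322 fit both members. Leaving such tags out therefore returned the main value for the other members. The count of higher members, 0 under each setting, is also among the 68. Where a member has no full-length read in either library, no odds ratio could be formed. Low counts limit mmu_piR_000159, mmu_piR_000362 and mmu_piR_000310.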
